A study of Mus musculus with 8 samples.

Results

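The genes described here are 10 of the 55401 genes listed for each kidney: the kidney water channels *Aqp1*, *Aqp2*, *Aqp3*, *Aqp4*, *Aqp6*, *Aqp7* and *Aqp11*, the vasopressin receptor gene *Avpr2*, and the urea transporter genes *Slc14a1* and *Slc14a2*. They were chosen by name, as the aquaporins with a known place in the kidney and the receptor and transporters that act with them in concentrating urine, and each was found once by its Ensembl identifier in GENCODE M21 (GRCm38). Whole-kidney RNA of 8 mice had been sequenced in a study of what the salt-inducible kinases (SIKs) do in the kidney. The 4 control mice carried floxed *Sik1*, *Sik2* and *Sik3* alleles without Cre (SIK1f/f, SIK2f/f, SIK3f/f per the labels) and, per the study's methods, were Cre-negative littermates. The 4 SIK mutant mice carried Six2-Cre in addition. By the labels, floxed alleles are thus shared by all 8 mice and Six2-Cre is the genotype difference between the groups. The labels give both *Sik1* alleles as floxed in the mutants, whereas the study's text describes 1 wild-type *Sik1* allele, and the group is therefore called SIK mutant. No drug or diet is named for these kidneys, and the labels give no age, sex, litter or batch.

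Water leaves the tubule through aquaporins, which are membrane channels. In the proximal tubule and the descending thin limb the channel *Aqp1* is always in the membrane, whereas in the principal cells of the collecting duct vasopressin binds its receptor, raises cyclic AMP and moves *Aqp2* to the apical membrane, and over hours also raises *Aqp2* transcription through the factor CREB. Urea transporters help to keep urea in the inner medulla and so take part in concentrating urine. SIKs phosphorylate CRTC proteins, the coactivators of CREB, and cyclic AMP signalling inhibits them. Six2-Cre acts in the progenitors of the nephron, and its tubule epithelium inherits the recombined alleles. The collecting duct arises from the ureteric bud and lies outside that lineage. *Aqp1*, *Aqp7* and *Aqp11* are therefore read as standing mainly for recombined epithelium, and *Aqp2* and *Aqp3* mainly for epithelium that Six2-Cre does not mark. How much of each gene's RNA comes from other cells was not measured, so the split by lineage is not a clean one. A whole kidney also holds vessels, stroma and blood cells without Six2-Cre activity, and in such bulk RNA fewer cells of a type and less RNA per cell cannot be told apart.

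The promoters of the collecting duct pair and of the main nephron water channel are shown because these genes form the central contrast. RefSeq (GRCm38.p6) supplied 8 windows for 7 of the 10 genes. The 250 bases that end at the base before the transcription start are printed 5′ to 3′ on the strand of the gene. They cover chr15:99578806-99579055 on the plus strand for *Aqp2*, chr4:41098184-41098433 on the minus strand for *Aqp3* and chr6:55336049-55336298 on the plus strand for *Aqp1*, with matches to the motifs searched in capitals.
Aqp2: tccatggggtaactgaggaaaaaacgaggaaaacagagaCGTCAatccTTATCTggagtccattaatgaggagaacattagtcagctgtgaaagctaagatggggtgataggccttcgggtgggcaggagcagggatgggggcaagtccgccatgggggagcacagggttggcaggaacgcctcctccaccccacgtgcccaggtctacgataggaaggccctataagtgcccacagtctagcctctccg
Aqp3: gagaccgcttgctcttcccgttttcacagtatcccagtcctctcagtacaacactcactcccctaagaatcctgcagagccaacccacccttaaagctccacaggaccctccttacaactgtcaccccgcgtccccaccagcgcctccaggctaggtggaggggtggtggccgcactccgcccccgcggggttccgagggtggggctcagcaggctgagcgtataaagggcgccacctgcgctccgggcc
Aqp1: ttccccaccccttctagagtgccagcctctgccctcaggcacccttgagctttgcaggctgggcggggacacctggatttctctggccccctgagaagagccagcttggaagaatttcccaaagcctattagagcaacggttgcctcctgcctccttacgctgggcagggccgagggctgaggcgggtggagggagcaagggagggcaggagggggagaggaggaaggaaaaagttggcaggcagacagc

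The letters searched, on both strands, were the short CREB site TGACG, the whole CREB site TGACGTCA (which contains the short one), the GATA site AGATAA and TGGAAA, the core of the site bound by the tonicity factor NFAT5. In *Aqp2* the short CREB site lay at positions −211 to −207 from the transcription start and the GATA site at −202 to −197, both on the opposite strand, so that the capitals show their reverse complements. The *Aqp3* and *Aqp1* windows held no match to any of these letters. Over the 8 windows, the short CREB site was in 1, the whole CREB site in 0, the GATA site in 2 and TGGAAA in 1. Among all 32851 mouse promoter windows of the same length, 17.8% held the short CREB site, 1.55% the whole CREB site, 9.99% the GATA site and 18.6% TGGAAA. These matches describe the letters alone.

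Depth was even, at 10179648 to 10925100 expected counts per kidney, so that 3 counts corresponded to 0.275 to 0.295 CPM (counts divided by library total) before TMM factors were applied. Among the targeted genes, *Sik3* was lower in all 4 mutants, with a log2 fold change of −0.67 (SE 0.0937, edgeR FDR 0.0697). *Sik2* had −0.44 (edgeR FDR 0.794), and SIK mutant 3 lay within the control range. *Sik1* had 0.31 (edgeR FDR 0.601), with 36.8 to 43.1 CPM in controls and 43.4 to 54.1 CPM in mutants. Controls 3 and 4 had at most 0.0875 CPM of each of 4 Y-linked genes, under 3 counts, whereas the other 6 kidneys had 10.97 to 32.73 CPM. No mutant lacked Y-linked reads, so the sex chromosomes and the genotype are partly confounded in the 8 kidneys, and the main comparisons are given for all 8 and for the 6 with Y-linked reads (controls 1 and 2 and the 4 mutants).

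The collecting duct channel *Aqp2* and the urea transporter *Slc14a2* had the largest estimates, 1.54-fold and 1.5-fold in SIK mutant over control kidneys, *Aqp1* the largest below 1 (0.853-fold), and none of the 10 genes passed the threshold of the test. All 10 passed the filter on low counts, with 30 to 11906 expected counts per kidney. With the quasi-likelihood test of edgeR, 0 of 10 had an FDR (Benjamini-Hochberg over the 14326 genes tested) under 0.05, against 0 of 14326 genes (0%). At an unadjusted p under 0.05 there were also 0 of 10, against 911 genes (6.36%), of which 396 were higher and 515 lower in mutants. Other tools called 67 genes (DESeq2) and 2 genes (limma-voom) over all genes, and 0 of the 10 in each. The log2 fold changes of the 10 had a median of 0.07, beside −0.0038 over all genes tested, and 6 were above and 4 below 0. On the log2(TPM + 1) scale the split over all genes was 1020 higher and 164 lower. On log2(TPM + 0.1) the median of all genes moved to 0.11, and values on those scales are read relative to that shift.

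**Figure D1:**
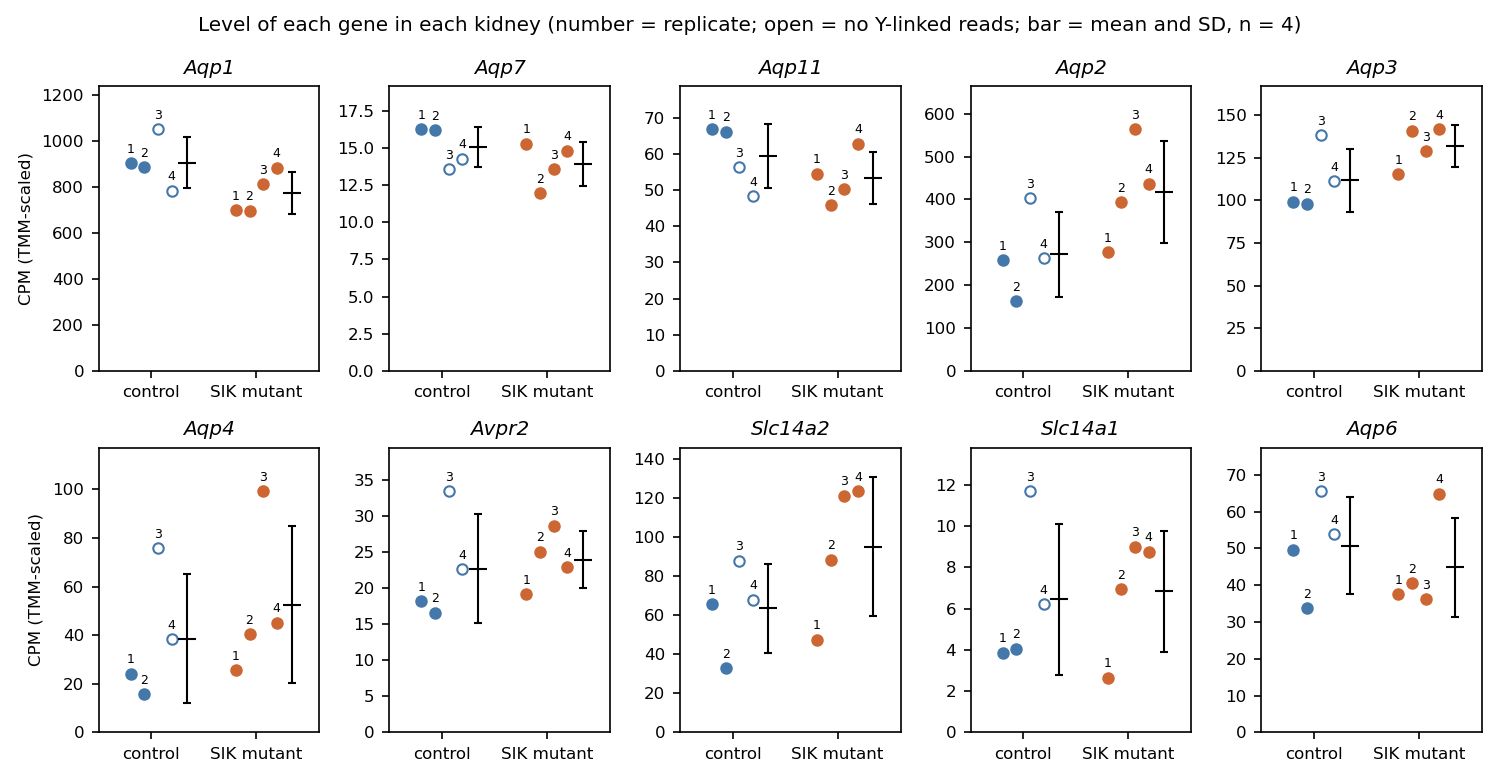
Level of each gene in each kidney, in CPM scaled by TMM factors, on a linear axis from 0. Each point is a kidney with its replicate number, open points are the 2 controls without Y-linked reads, and the bars give the mean and SD (n = 4). The groups overlap for all 10 genes, and control 3 lies above the other controls for all of them except *Aqp7* and *Aqp11*.

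*Aqp1* encodes the constitutive water channel of the proximal tubule and descending thin limb (chromosome 6, 55336432 to 55348555). Controls 1 to 4 had 901, 885, 1048 and 782 CPM. SIK mutants 1 to 4 had 697, 696, 810 and 882 CPM. Mutants 1 and 2 lay below every control, whereas mutants 3 and 4 lay within the control range. The means were 904 ± 109.8 CPM in controls and 771 ± 91.1 CPM in mutants (SD, n = 4 each). The log2 fold change was −0.23 (SE 0.126, edgeR FDR 0.803), a 0.853-fold level with a 95% interval of 0.701 to 1.04.

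*Aqp7* encodes an aquaglyceroporin, a channel for water and glycerol, of the straight proximal tubule, and adipocytes express it as well (chromosome 4, 41033074 to 41048139). Its levels were 16.2, 16.2, 13.6 and 14.3 CPM in controls 1 to 4, and 15.3, 12.0, 13.6 and 14.8 CPM in mutants 1 to 4. Mutant 2 was below the control range and mutant 3 level with the lowest control, and the log2 fold change was −0.12 (SE 0.116, edgeR FDR 0.912). RSEM's effective length of *Aqp7*, which depends on the mix of transcripts assigned, ran from 1217 to 2031 bases between kidneys. That was wider than for the other genes here, so its TPM moves with that mix. With an effective-length offset the log2 fold change was −0.13. With log2(TPM + 0.1) it was 0.0018, on a scale where the median of all genes was 0.11. The part of length in that value was not tested.

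*Aqp11* encodes a channel of the endoplasmic reticulum in proximal tubule cells (chromosome 7, 97724006 to 97738289). Controls had 66.8, 66.2, 56.3 and 48.2 CPM and mutants 54.5, 45.8, 50.3 and 62.8 CPM. The highest mutant exceeded 2 of the 4 controls, and the log2 fold change was −0.15 (SE 0.132, edgeR FDR 0.897). All 3 nephron channels thus had estimates below 0, from −0.23 to −0.12, each within an interval that spans 0.

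*Aqp2* encodes the vasopressin-regulated apical channel of principal cells (chromosome 15, 99579055 to 99584547) and had the largest estimate of the 10. Controls 1 to 4 had 258, 163, 403 and 262 CPM. SIK mutants 1 to 4 had 277, 393, 563 and 437 CPM. Mutants 3 and 4 lay above every control, but control 3 exceeded mutants 1 and 2. The means were 272 ± 98.8 CPM in controls and 418 ± 118.2 CPM in mutants (SD, n = 4 each). The log2 fold change was 0.62 (SE 0.279), a 1.54-fold level with a 95% interval of 0.997 to 2.37, at an unadjusted p of 0.0515 and an edgeR FDR of 0.781. The two-sided exact permutation test on CPM gave p = 0.0857, where 0.0286 is the smallest p that 4 against 4 allows. The unadjusted p depended on single kidneys: it was 0.0075 without control 3 and 0.155 without SIK mutant 3, with FDRs of 0.622 and 0.995.

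*Aqp3* encodes the basolateral channel through which principal cells pass water and glycerol to the interstitium (chromosome 4, 41092722 to 41098183). Its gene is a neighbour of *Aqp7*, 44583 bases away on the same strand, yet the estimates of the pair had opposite signs. Controls had 99.2, 97.9, 138 and 111 CPM and mutants 115, 141, 129 and 141 CPM. All 4 mutants lay above controls 1, 2 and 4, and control 3 lay within the mutant range. Means of 112 ± 18.6 and 132 ± 12.3 CPM (SD, n = 4 each) gave a log2 fold change of 0.24 (SE 0.126, edgeR FDR 0.803). The exact permutation p was 0.114. Without control 3 the log2 fold change was 0.36, with an unadjusted p of 0.0088 and an edgeR FDR of 0.640, and without control 2 it was 0.18, with an unadjusted p of 0.213 and an edgeR FDR of 0.853.

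*Aqp4* encodes the other basolateral channel, which is most abundant in the inner medullary duct (chromosome 18, 15389496 to 15410982). Controls had 24.2, 15.6, 75.7 and 38.4 CPM and mutants 25.6, 40.4, 99.4 and 45.1 CPM. SIK mutant 3 and control 3 stood above all other kidneys, and the spread within groups, 38.5 ± 26.6 and 52.6 ± 32.3 CPM (SD, n = 4 each), was larger than the difference between them. The log2 fold change of 0.45 (SE 0.512, edgeR FDR 0.925) turned to −0.059 without SIK mutant 3.

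*Avpr2* encodes the V2 receptor, which couples vasopressin to cyclic AMP in the collecting duct and the thick ascending limb (chromosome X, 73892102 to 73895502). Controls had 18.2, 16.6, 33.5 and 22.6 CPM and mutants 19.2, 25.1, 28.7 and 22.9 CPM, so that all mutants lay within the control range. The log2 fold change was 0.07 (SE 0.218, edgeR FDR 0.974) and its sign turned without control 1, control 2 or SIK mutant 3. Its gene overlaps *Arhgap4* and *L1cam* on the opposite strand, and whether counting used strand is not stated, so reads in the shared stretches could come from either gene.

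*Slc14a2* encodes the UT-A urea transporters of the inner medullary collecting duct and the thin limb (chromosome 18, 78146148 to 78596942). Controls had 65.5, 32.8, 87.7 and 67.8 CPM and mutants 47.4, 88.3, 121 and 123 CPM. Mutants 2, 3 and 4 lay above every control and mutant 1 below 3 of the 4. The means were 63.4 ± 22.7 CPM in controls and 95 ± 35.6 CPM in mutants (SD, n = 4 each), which makes a log2 fold change of 0.58 (SE 0.337), a 1.5-fold level with a 95% interval of 0.886 to 2.53 (edgeR FDR 0.812). The log2 value was 0.81 without SIK mutant 1 (unadjusted p 0.0203, edgeR FDR 0.735), 0.43 without SIK mutant 4 (unadjusted p 0.273) and 0.37 without control 2 (unadjusted p 0.252).

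*Slc14a1*, which lies 4029 bases from *Slc14a2* (chromosome 18, 78100091 to 78142119), encodes UT-B, the urea transporter of the descending vasa recta and of red cells. It was the least abundant of the 10, at 3.86, 4.05, 11.7 and 6.22 CPM in controls and 2.65, 6.96, 9.01 and 8.76 CPM in mutants. Only mutant 1 lay outside the control range. The estimate of 0.07 on the log2 scale (SE 0.436, edgeR FDR 0.989) had a 95% interval of −0.91 to 1.05 and turned sign when control 1, control 2, SIK mutant 3 or SIK mutant 4 was left out. Of 5 red cell genes, 2 (*Alas2* and *Hbb-bt*) were higher in mutants at an unadjusted p under 0.05, where 396 of all 14326 genes were. None was at 0 CPM, and on the 6 kidneys with Y-linked reads 0 of the 5 red cell genes were higher at that threshold. Their summed level was 702 to 1233 CPM in controls and 731 to 2967 CPM in mutants. SIK mutants 1 and 4 had the highest sums, 2967 and 2594 CPM, and among the mutants they held the lowest and the second highest *Slc14a1*. The part of red cells in *Slc14a1* was not tested.

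*Aqp6* encodes an intracellular channel of acid-secreting intercalated cells and lies 16853 bases from *Aqp2* (chromosome 15, 99601400 to 99605477). Controls had 49.6, 33.7, 65.6 and 53.8 CPM and mutants 37.6, 40.6, 36.2 and 64.8 CPM. SIK mutants 1, 2 and 3 lay near the lowest control and mutant 4 near the highest, and the log2 fold change was −0.18 (SE 0.232, edgeR FDR 0.936). Over all 14326 genes tested, 515 were lower and 396 higher in mutants at an unadjusted p under 0.05 (6.36% in all). Of 6 intercalated cell markers, 3 were lower in mutants at that threshold and 0 higher: the proton pump subunits *Atp6v1g3* (log2 fold change −0.29, edgeR FDR 0.704) and *Atp6v0d2* (−0.30, edgeR FDR 0.601) and the transcription factor *Foxi1* (−0.67, edgeR FDR 0.612). Their summed level was 252 to 365 CPM in controls and 256 to 268 CPM in mutants, no marker was at 0, and on the 6 kidneys with Y-linked reads 0 of the 6 had an unadjusted p under 0.05. How far *Aqp6* follows these cells was not tested.

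**Figure D2:**
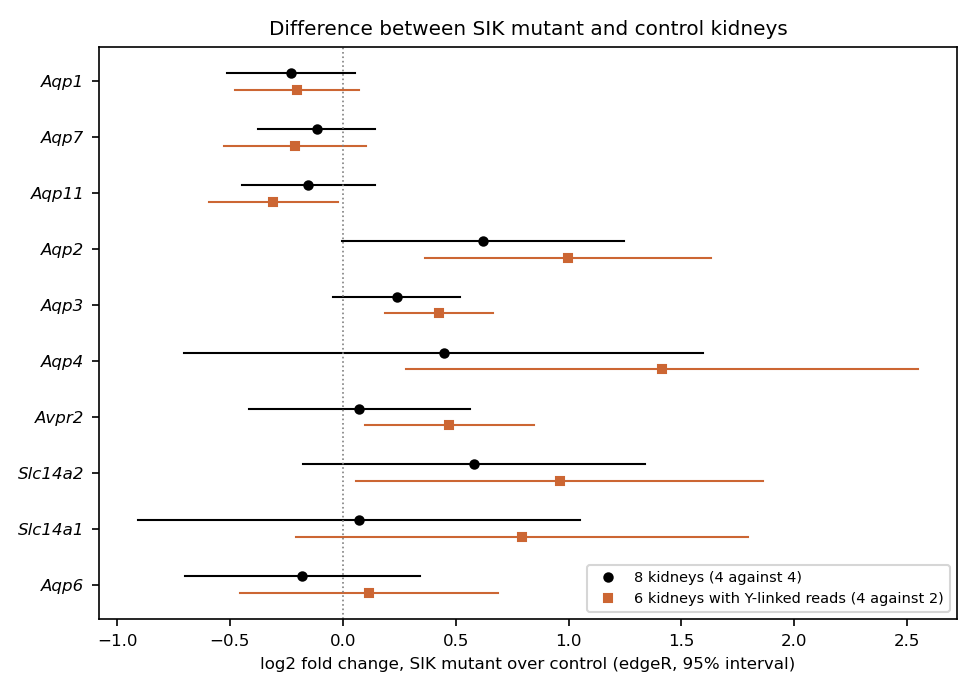
Log2 fold change of each gene, SIK mutant over control, with its 95% interval from edgeR. Black circles are all 8 kidneys and orange squares the 6 kidneys with Y-linked reads. With 8 kidneys every interval includes 0, and with 6 the intervals of *Aqp2*, *Aqp3*, *Aqp4*, *Avpr2* and *Slc14a2* lie above 0 and that of *Aqp11* below it.

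The comparison moved when the 2 controls without Y-linked reads were set aside. On the 6 kidneys with Y-linked reads, *Aqp2* had a log2 fold change of 0.997 (SE 0.279), a 1.996-fold level, and *Aqp3* had 0.43 (SE 0.105), a 1.34-fold level. *Aqp4* had 1.41 (SE 0.498), *Slc14a2* 0.96 (SE 0.396) and *Avpr2* 0.47 (SE 0.164). *Aqp11* had −0.31 (SE 0.125). These 6 genes had an unadjusted p under 0.05, 5 higher and 1 lower, where 942 of 14719 genes (6.40%) were higher and 698 (4.74%) lower. The other 4 were *Aqp1* at −0.20, *Aqp7* at −0.21, *Slc14a1* at 0.79 and *Aqp6* at 0.11.

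None of the 10 passed an edgeR FDR of 0.05 on these 6 kidneys (FDR 0.228 to 0.886), where 21 genes (0.143%) did. DESeq2 on the same 6, a fit added after the data had been seen, gave *Aqp3* an FDR of 0.0605 and *Aqp2* one of 0.217. With all 8 kidneys and Y-linked expression as a covariate, the log2 fold changes were 0.999 for *Aqp2*, 0.43 for *Aqp3* and 1.43 for *Aqp4*. In that fit 6 of the 10 had an unadjusted p under 0.05, against 12.0% of all genes, and the lowest edgeR FDR was 0.230. Only 2 controls remain in the smaller set, and an exact permutation test of 2 against 4 cannot go below p = 0.0667.

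In CPM, the 4 mutants lay on 1 side of controls 1 and 2 for 7 of the 10 genes. They were above both for *Aqp2*, *Aqp3*, *Aqp4* and *Avpr2*, where 10.1% of all genes tested were, and below both for *Aqp1*, *Aqp7* and *Aqp11*, where 11.7% were. For *Aqp1* the margin was narrow, 882 CPM in SIK mutant 4 against 885 CPM in control 2. With all 4 controls the groups did not overlap for 0 of the 10, against 578 genes (4.03%).

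The controls themselves differed along the same line. Controls 3 and 4 both lay above controls 1 and 2 for 7 of the 10 genes (*Aqp2*, *Aqp3*, *Aqp4*, *Aqp6*, *Avpr2*, *Slc14a1*, *Slc14a2*), where 30.0% of all genes did, and both below for *Aqp7* and *Aqp11*, where 29.7% did. The mean of controls 3 and 4 was 333 CPM for *Aqp2* against 211 CPM in controls 1 and 2, and 57.1 against 19.9 CPM for *Aqp4*. *Aqp1* alone did not separate them. Control 2 was the lowest of all 8 kidneys for 6 genes (*Aqp2*, *Aqp3*, *Aqp4*, *Aqp6*, *Avpr2*, *Slc14a2*), and SIK mutant 2 was the lowest for the 3 nephron channels.

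**Figure D3:**
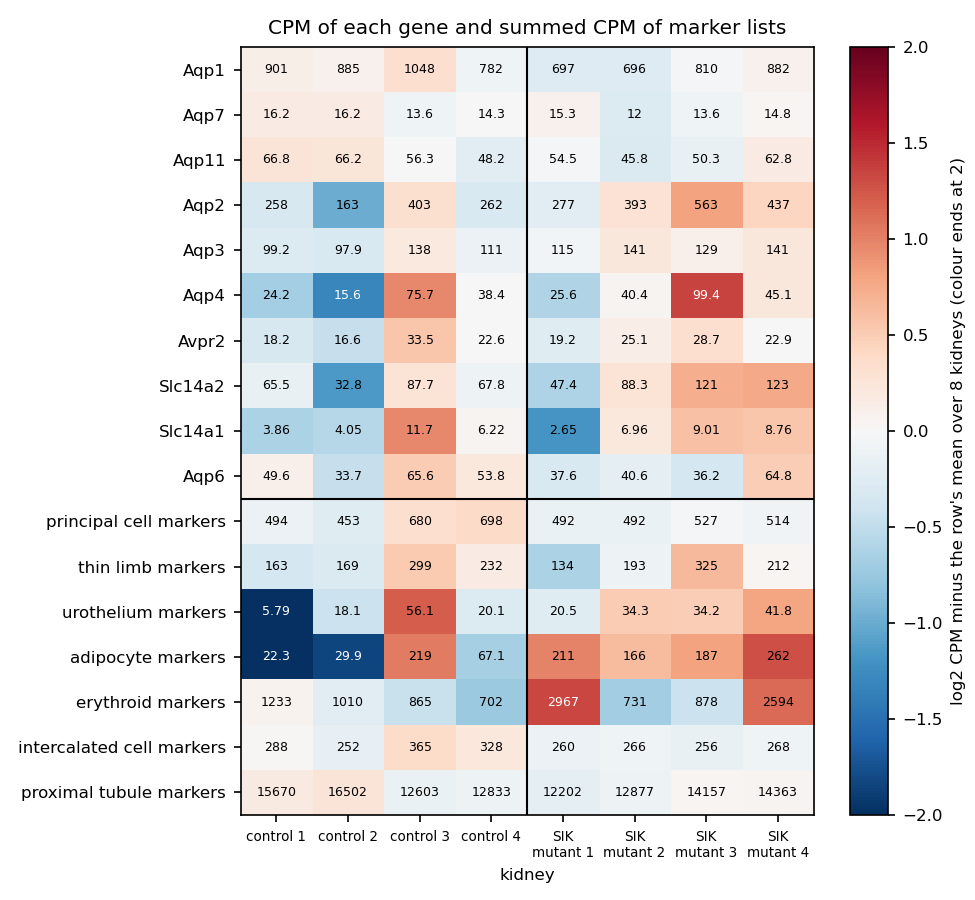
CPM of the 10 genes and, under the line, summed CPM of marker lists in each kidney. The number in a cell is the level, and colour is log2 CPM minus the mean of that row over the 8 kidneys. Control 3 and SIK mutant 3 are high for *Aqp4*, *Aqp2* and the thin limb markers, and controls 1 and 2 are low for them and for urothelium and adipocyte markers.

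Markers of other structures moved with these kidneys. Of 6 urothelium markers (*Krt20* was at 0 in 2 kidneys), 5 were tested, and the summed level was 5.79 CPM in control 1, 18.1 in control 2, 56.1 in control 3 and 20.1 in control 4, against 20.5 to 41.8 CPM in mutants. On the 6 kidneys with Y-linked reads, 4 of the 5 tested were higher in mutants at an unadjusted p under 0.05, where 6.40% of all genes were. On all 8 kidneys 0 of these markers were. Of 7 adipocyte markers, *Lep* was at 0 in 3 kidneys, *Retn* in 2 and *Plin1*, *Cidec*, *Cfd* and *Adipoq* in 1 each, and the summed level was 22.3 and 29.9 CPM in controls 1 and 2, 219 and 67.1 in controls 3 and 4, and 166 to 262 CPM in mutants. On all 8 kidneys 6 of them were tested and 1, *Fabp4*, was higher at an unadjusted p under 0.05, where 396 of all 14326 genes were. On the 6 kidneys all 7 adipocyte markers were, 5 of them past an edgeR FDR of 0.05, which 0.143% of all genes passed. *Aqp7*, which adipocytes also express, was highest in controls 1 and 2, where the adipocyte sum was lowest. The part of adipocytes in *Aqp7* was not tested.

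The thin limb list gave 163 and 169 CPM in controls 1 and 2, 299 and 232 in controls 3 and 4, and 134 to 325 CPM in mutants, with 0 of 5 genes at an unadjusted p under 0.05 on 8 kidneys. No thin limb marker was at 0. The part that the piece of kidney sampled, or these other structures, had in the collecting duct values was not tested.

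The principal cell list holds genes, other than water channels, of the cells that hold *Aqp2* and *Aqp3*. In bulk RNA these markers do not separate cell number from RNA per cell, and how much comes from other cells was not measured. All 5 were present in every kidney, and 0 of 5 had an unadjusted p under 0.05 on 8 or on 6 kidneys. Their summed level was 494, 453, 680 and 698 CPM in controls 1 to 4 and 492 to 527 CPM in mutants. *Fxyd4*, a sodium pump regulator, had a log2 fold change of 0.02, *Hsd11b2*, the enzyme that shields the mineralocorticoid receptor from glucocorticoids, −0.17, and the sodium channel subunits *Scnn1b* and *Scnn1g* −0.03 and −0.05. *Npnt*, a matrix protein gene and the most abundant marker of the list in controls, had the largest difference, −0.34 (SE 0.212, edgeR FDR 0.832), opposite in sign to *Aqp2*. On the 6 kidneys *Fxyd4*, *Hsd11b2*, *Scnn1b*, *Scnn1g* and *Npnt* had 0.49, 0.02, 0.10, 0.12 and 0.13, beside 0.997 for *Aqp2* and 0.43 for *Aqp3*. *Aqp2* and these markers were not tested against each other.

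The contrast between nephron and collecting duct channels was taken within each kidney, as the mean log2 CPM of *Aqp1*, *Aqp7* and *Aqp11* minus that of *Aqp2* and *Aqp3*, and is described without a test. It was −0.69, −0.36, −1.35 and −1.07 in controls 1 to 4 and −1.10, −1.70, −1.72 and −1.41 in SIK mutants 1 to 4. Mutants 2, 3 and 4 lay below every control, and mutant 1 lay between controls 3 and 4. The means were −0.87 ± 0.430 in controls and −1.48 ± 0.290 in mutants (SD, n = 4 each), a difference of −0.61 on the log2 scale. Both sides contributed: the median log2 fold change was −0.15 for the 3 nephron channels and 0.43 for the 2 collecting duct channels. Without controls 3 and 4 the difference was −0.95.

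**Figure D4:**
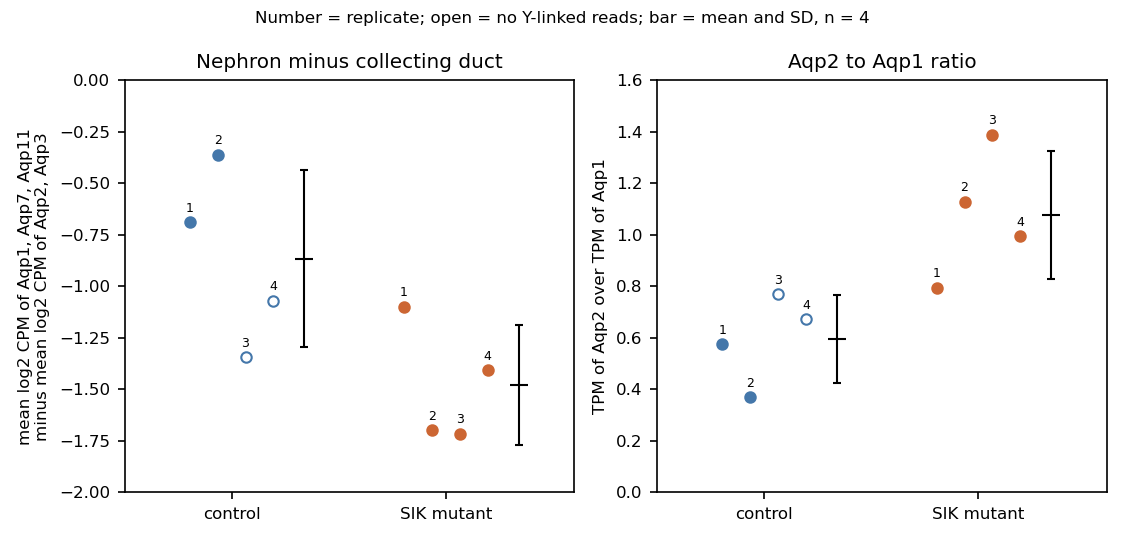
Left, mean log2 CPM of the 3 nephron channels minus that of the 2 collecting duct channels. Right, ratio of *Aqp2* to *Aqp1* in TPM. Each point is a kidney with its replicate number, open points lack Y-linked reads, and bars give the mean and SD (n = 4). The groups overlap on the left and do not overlap on the right, where control 3 is at 0.769 and SIK mutant 1 at 0.795.

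Levels of different genes can be compared in TPM, which corrects for length. In controls the order of mean TPM was *Aqp1* (380 ± 64.2), *Aqp2* (232 ± 99.8), *Aqp3* (76.3 ± 17.4), *Aqp6* (35.5 ± 11.8), *Aqp11* (29.5 ± 2.79), *Slc14a2* (24.7 ± 10.3), *Avpr2* (13.5 ± 5.91), *Aqp7* (9.47 ± 2.48), *Aqp4* (8.94 ± 6.80) and *Slc14a1* (2.16 ± 1.35; SD, n = 4). The ranges of neighbours in that order overlapped for 7 of 9 pairs, and *Aqp2* from *Aqp3* and *Aqp3* from *Aqp6* were the 2 pairs set apart. In mutants *Aqp2* came first, at 377 ± 109.0 TPM, with *Aqp1* at 347 ± 25.4 TPM (SD, n = 4 each), and *Slc14a2* moved from the sixth place to the fourth. Those neighbours differed by less than the spread between mutants.

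The ratio of *Aqp2* to *Aqp1* in TPM, chosen after the values were seen and given without a test, does not depend on how libraries are scaled. It was 0.575, 0.370, 0.769 and 0.671 in controls 1 to 4 and 0.795, 1.13, 1.39 and 0.993 in SIK mutants 1 to 4. *Aqp2* thus exceeded *Aqp1* in 2 of 4 mutants and in 0 of 4 controls, and SIK mutant 1 lay just above control 3.

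Genes upstream and downstream of these channels were read from lists of vasopressin signalling, *Aqp2* trafficking, *Aqp2* transcription and the osmolyte response. Of 12 vasopressin signalling genes, 1 was higher and 0 lower at an unadjusted p under 0.05, and the median log2 fold change was −0.02. That gene was *Pde4b*, a phosphodiesterase that degrades cyclic AMP, with 8.93, 10.3, 10.8 and 12.7 CPM in controls and 16.2, 13.2, 12.8 and 13.8 CPM in mutants (log2 fold change 0.39, SE 0.136, edgeR FDR 0.713). Its groups did not overlap, with control 4 at 12.7 CPM and SIK mutant 3 at 12.8 CPM. The most abundant members, the G protein subunit *Gnas*, the protein kinase A subunit *Prkar1a* and the adenylyl cyclase *Adcy6*, had log2 fold changes of −0.08, −0.02 and −0.02. On the 6 kidneys with Y-linked reads 3 of 12 were higher, *Pde4b* (0.55), *Creb1* (0.42) and *Adcy6* (0.40), with 0 lower. For this list and those that follow, 396 of 14326 genes were higher and 515 lower at that threshold on all 8 kidneys (6.36% in all). On the 6 kidneys 6.40% of all genes were higher and 4.74% lower.

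Of 9 trafficking genes, 0 were higher and 1 lower, *Vamp2*, a vesicle SNARE that serves fusion of *Aqp2* vesicles, with a log2 fold change of −0.27 (SE 0.110, edgeR FDR 0.754), and the median was 0.07. Its levels were 60.8, 61.7, 68.2 and 79.6 CPM in controls and 62.8, 56.7, 49.7 and 54.6 CPM in mutants, so that only mutant 1 lay within the control range. The chaperone *Hspa8* (−0.09) and the ubiquitin ligases *Nedd4* (0.18) and *Stub1* (−0.07) were the most abundant. *Vamp2* had −0.12 on the 6 kidneys, with an unadjusted p of 0.294, and 1 of 9 was higher, *Nedd4* (0.24), with 0 lower. Of 8 transcription factors tied to *Aqp2*, 0 had an unadjusted p under 0.05 and the median was −0.05, with *Tfap2b* at −0.03 and *Gata2* at −0.11. On the 6 kidneys 2 of 8 were higher, *Ehf* (0.77) and *Grhl2* (0.43).

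Of 6 osmolyte genes, 0 had an unadjusted p under 0.05 and the median was 0.12. The taurine transporter *Slc6a6* had a log2 fold change of 0.13, the inositol transporter *Slc5a3* −0.45 and the aldose reductase gene *Akr1b3* 0.59 (SE 0.599). *Akr1b3*, which makes sorbitol in the hypertonic medulla, was at 302 CPM in SIK mutant 3 and at 32.3 to 110 CPM in all other kidneys. SIK mutant 3 was also the highest kidney for *Aqp2* and *Aqp4*. On the 6 kidneys 1 of 6 was higher, the factor *Nfat5* itself (0.48).

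Of the 5 other aquaporin genes, only *Aqp8* passed the filter, at 0.176 to 1.68 CPM in controls and 1.06 to 2.23 CPM in mutants. Its log2 fold change was 1.40 (SE 0.558, edgeR FDR 0.751) with an unadjusted p of 0.0317, control 2 lay within the mutant range, and on the 6 kidneys it was 0.76 with an unadjusted p of 0.200. *Aqp12* was at 0 in all 8 kidneys, which with 3 counts as the floor in each kidney allows up to 0.295 CPM, and *Mip* and *Aqp9* were at most 0.263 and 0.177 CPM, no more than 3 counts. *Aqp5*, which lies with *Aqp2* and *Aqp6* on chromosome 15, was at most 0.528 CPM.

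The genes whose deviations from the group means ran most like those of a member, by Pearson's r of log2 CPM over the 8 kidneys, were taken from all genes tested, so that high values are what the choice selects. For *Aqp2* they were *Mal2* (0.983), *Nipal1* (0.982), *Gprc5a* (0.974), *4930523C07Rik* (0.968) and *Gm27202* (0.960). For *Aqp1* they were *Alas1* (0.984), *Aaed1* (0.973), *Dtd2* (0.956), *Smurf2* (0.954) and *Ccni* (0.954). For *Aqp7* they were *Chsy1* (0.985), *Mdh2* (0.960), *Map2k5* (0.958) and *Ppp1ca* (0.958). No other member was among the 5 genes nearest to *Aqp2*, *Aqp1* or *Aqp7*, and the same 8 kidneys enter every value.

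Proximal tubule markers gave the setting for the nephron channels. Of 9, 0 were higher and 1 was lower at an unadjusted p under 0.05, *Miox*, an inositol oxygenase of the proximal tubule (log2 fold change −0.34, SE 0.121, edgeR FDR 0.713), and none was at 0. Over all genes tested, 515 of 14326 were lower at that threshold on the 8 kidneys, and 4.74% were on the 6. *Miox* had −0.27 on the 6 kidneys, with an unadjusted p of 0.0857, and the 1 marker lower was the phosphate transporter *Slc34a1*, the most abundant of the list (−0.52, unadjusted p 0.0037 and edgeR FDR 0.241). The median was −0.10, beside −0.15 for the 3 nephron channels. Their summed level was 12603 to 16502 CPM in controls and 12202 to 14363 CPM in mutants, highest in controls 1 and 2, the kidneys in which *Aqp7* and *Aqp11* were highest. The organic anion transporter *Slc22a6* was at 415 and 429 CPM in controls 3 and 4 and at 881 to 1523 CPM in the 6 kidneys with Y-linked reads. *Aqp1* did not show that step, at 915 CPM on average in controls 3 and 4 and 893 CPM in controls 1 and 2.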

How the data were processed

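RNA was taken from whole kidneys of 4 control and 4 SIK mutant mice and sequenced as DNA nanoballs on a BGISEQ500. The submitters' processing notes name FastQC, STAR 2.7.2b, RSEM 1.3.0, DESeq2 and the mm10 build; strand use and filters are not given in the sources used here. The authors deposited, per kidney, RSEM expected counts (estimated reads per gene, not normalised), TPM (scaled to gene length and library total) and other RSEM columns: effective length and the posterior SD of the counts, which was 0 for all 10 genes.

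Groups and replicate numbers come from the sample titles. Of 55401 identifiers, 55141 matched GENCODE M21 without version. Counts were rounded and tested with edgeR 4.0.16 (R 4.3.3; TMM, filterByExpr, glmQLFit with legacy = TRUE, no covariate or block) over 14326 genes, with Benjamini-Hochberg adjustment (FDR). CPM use TMM factors. Single genes were also tested by two-sided exact permutation over 70 assignments. The members and lists were chosen with earlier results of these data known, and the text names all 10 genes, list genes at an unadjusted p under 0.05, the 3 most abundant per pathway list and the 5 nearest in pattern. Principal cell, urothelium, adipocyte and *Slc22a6* values outside that rule were named after they were seen, and a few genes that the rule names are not reported here. The tests were tried on simulated counts first. Replicates were not duplicates (chi-square per degree of freedom 9.44 to 53.8 over 12 pairs), and each sample was taken as 1 mouse. The libraries carry no molecular identifiers, so floors cover counting error only.

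Alternatives were RLE and upper-quartile factors, DESeq2 1.42.0, limma-voom and limma-trend on log2(TPM + 1) or log2(TPM + 0.1) (limma 3.58.1), all genes unfiltered, a minimum mean of 50 counts, an effective-length offset, legacy = FALSE, the replicate block, a Y-linked covariate, the 6 kidneys with Y-linked reads and leaving out each kidney. Marker lists were read for proximal tubule, thin limb, thick ascending limb, principal cell, intercalated cell, endothelium, podocyte, urothelium, red cells and adipocytes.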

Additional observations from a re-analysis of the deposited data

Results flagged for a closer look

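In SIK mutants the *Aqp6* level of mutant 4, 64.8 CPM, stood apart from the other 3 mutants at 36.2 to 40.6 CPM: its gap to the nearest of them was 0.848 of the range of the group, beyond what Dixon's test allows at 95% for 4 samples. This was the only such gap among 22 groups examined, and chance gives about 1 in 20. Without SIK mutant 4 the *Aqp6* log2 fold change was −0.41 in place of −0.18.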

How the results depend on the processing

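No alternative brought any of the 10 genes past an FDR of 0.05: over 22 alternatives the lowest FDR was 0.0605, for *Aqp3* with DESeq2 on the 6 kidneys that had Y-linked reads. The estimates for *Aqp1* (−0.30 to −0.12), *Aqp11* (−0.31 to −0.09), *Aqp2* (0.44 to 0.999), *Aqp3* (0.18 to 0.43) and *Slc14a2* (0.37 to 0.97) kept their sign in all 22. The number of the 10 at an unadjusted p under 0.05, 0 in edgeR on 8 kidneys, was 1 with DESeq2, limma-voom, no filter or the replicate block (*Aqp2* each time), 2 with log2(TPM + 1) or log2(TPM + 0.1), 6 with the Y-linked covariate or on those 6 kidneys, 5 with DESeq2 on those 6, a fit added after the data were seen, and 0 to 2 when a kidney was left out. The 6-kidney fits compare fewer samples, and the covariate largely sets the same 2 controls apart. Otherwise the cause was not tested. Genes past FDR 0.05 numbered 0 in edgeR, 67 with DESeq2, 2 with limma-voom, 4 and 5 on the TPM scales with 1 and 0.1 added, 9 with no filter, 1 with legacy = FALSE, 17 with the covariate, 21 on the 6 kidneys, 188 with DESeq2 on those 6, and 0 to 1 without a kidney. Genes at an unadjusted p under 0.05, 911 in edgeR, were 886 with DESeq2, 915 with limma-voom and 1338 with no filter. They were 1184 and 1176 on the TPM scales with 1 and 0.1 added, and 1718 with the covariate. On the 6 kidneys they were 1640 with edgeR and 1291 with DESeq2. Without a kidney they were 593 to 1181, lowest without SIK mutant 2. Estimates that changed sign were those of *Aqp4* (−0.059 without SIK mutant 3, at most 1.01 when a kidney was left out and 1.43 with the covariate), *Aqp6* (0.12 with the covariate, 0.11 on the 6 kidneys by edgeR and 0.11 by DESeq2), *Aqp7* (0.0018 with log2(TPM + 0.1)), *Avpr2* (−0.019 without control 1, −0.050 without control 2, −0.024 without SIK mutant 3, at most 0.32 when a kidney was left out and 0.47 with the covariate) and *Slc14a1* (−0.11 without control 1, −0.095 without control 2, −0.088 without SIK mutant 3, −0.069 without SIK mutant 4, at most 0.53 when a kidney was left out and 0.82 with the covariate). On the log2(TPM + 0.1) scale, where *Aqp7* changed sign, the median of all genes was 0.11. The nephron minus collecting duct contrast was −0.77 to −0.45 without a kidney. Same-numbered kidneys did not deviate together (correlations −0.193, 0.043, 0.063 and −0.344), and the numbers were used only as names. The labels give no litter or batch, so whether any kidneys are paired cannot be told. With the block 657 genes in place of 911 had an unadjusted p under 0.05, 0 past FDR 0.05. With 4 kidneys a group the 95% intervals of *Aqp2*, *Slc14a2*, *Aqp4* and *Slc14a1* reach folds of 2.37, 2.53, 3.02 and 2.07.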

Other observations

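Lists for the remaining structures of the kidney gave no difference past the test. Of 6 thick ascending limb markers 0 had an unadjusted p under 0.05 on the 8 kidneys, with a median log2 fold change of −0.05, and on the 6 kidneys with Y-linked reads 2 were higher, the sodium-potassium-chloride cotransporter *Slc12a1* (0.50) and the potassium channel *Kcnj1* (0.24). Of 6 endothelial markers 0 had an unadjusted p under 0.05 on either set, with medians of −0.12 and 0.11. Of 4 podocyte markers 0 did on the 8 kidneys and 1 on the 6, the slit diaphragm gene *Nphs1* (0.48). Over all genes tested, 6.36% had an unadjusted p under 0.05 on the 8 kidneys. On the 6 kidneys 6.40% were higher and 4.74% lower.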
